A study of Mus musculus with 9 samples.

Results

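The genes described here are those encoded by the mitochondrial genome of the mouse, without mt-Nd3 and the transfer RNA genes on either side of it, mt-Tr and mt-Tg. They were taken by their annotation, as every gene of the mitochondrial chromosome of the mm10 (GRCm38) assembly with a symbol that starts with mt-, apart from those 3. This leaves 34 of the 37 mitochondrial genes, among 54532 gene identifiers in the count files: 12 protein-coding genes, 2 ribosomal RNA genes and 20 transfer RNA genes. Polyadenylated RNA of the mouse striatum was counted per gene in 9 libraries, 3 from cGAS knockout mice (cGAS KO), 3 from STING knockout mice (STING KO) and 3 from wild-type mice (WT). The knockouts were made with CRISPR-Cas9 on the C57BL/6J background that WT shares, and the series text places the brain samples after ischemic stroke. The sources used here do not state age, sex, the time after the stroke or the side of the brain. The labels do not say whether the 3 libraries of a group came from separate animals, so the p-values below measure the spread between these libraries only.

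Mitochondrial DNA is copied into long RNAs from both strands, and the transfer RNAs that lie between most of the other genes are cut out to free the messenger and ribosomal RNAs. The protein-coding genes give subunits of the respiratory chain: NADH dehydrogenase (complex I), cytochrome bc1 (complex III), cytochrome c oxidase (complex IV) and ATP synthase (complex V), whose other subunits are encoded in the nucleus. The ribosomal and transfer RNAs serve the mitochondrion's own ribosomes. cGAS is an enzyme that detects DNA in the cytosol, mitochondrial DNA that has leaked there included, and STING is the membrane protein that relays its signal.

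Library totals ran from 14129021 to 21286775 counts. In each group 1 library held the fewest genes with 1 to 9 counts: cGAS KO 2 with 4723, STING KO 2 with 2280 and WT 3 with 4699, against 7096 to 7927 in the other 6 libraries. These 3 are called the low-complexity libraries below, and results are given with and without them. Normalised levels are CPM, counts scaled to the library total after a trimmed-mean correction. Cgas lay at 0.262 to 1.10 CPM in cGAS KO, 1.04 to 1.55 CPM in STING KO and 1.40 to 3.18 CPM in WT, so cGAS KO and WT did not overlap. The gene of STING, listed as Tmem173, lay at 1.04 to 2.17 CPM in STING KO and 1.34 to 4.06 CPM in WT, which overlapped. Its RNA level therefore does not separate the STING KO libraries from WT. Striatal spiny neuron markers were abundant in every library, with a summed level of 5273 CPM in WT 3 and 8812 to 10790 CPM in the other 8.

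The share of counts from mitochondrial RNA overlapped between the 3 genotypes. The 34 genes took 6.08%, 5.28% and 9.62% of the counts in cGAS KO 1, 2 and 3, a mean of 6.99% ± 2.31 (SD, n = 3). They took 5.50%, 6.28% and 5.07% in STING KO, a mean of 5.62% ± 0.614 (SD, n = 3). In WT they took 6.54%, 7.87% and 4.38%, a mean of 6.27% ± 1.76 (SD, n = 3). The highest share was in cGAS KO 3 and the lowest in WT 3, and the ranges of the 3 groups overlapped. The difference of STING KO from cGAS KO was -1.38 percentage points with all libraries and -0.061 without cGAS KO 3. In bulk tissue, fewer cells rich in mitochondria and less mitochondrial RNA per cell cannot be told apart.

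The protein-coding genes carried most of it, with means of 5.98% ± 2.37 of the counts in cGAS KO, 4.85% ± 0.219 in STING KO and 5.60% ± 1.71 in WT (SD, n = 3 each). The ribosomal RNA genes carried 0.991% ± 0.357, 0.758% ± 0.461 and 0.649% ± 0.0541 in the same order. The transfer RNA genes carried 0.0193% ± 0.00532, 0.0124% ± 0.00336 and 0.0160% ± 0.00301. In no class did the groups separate, and the highest ribosomal values were those of cGAS KO 2 (1.33%) and STING KO 2 (1.29%), both low-complexity libraries.

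**Figure D1:**
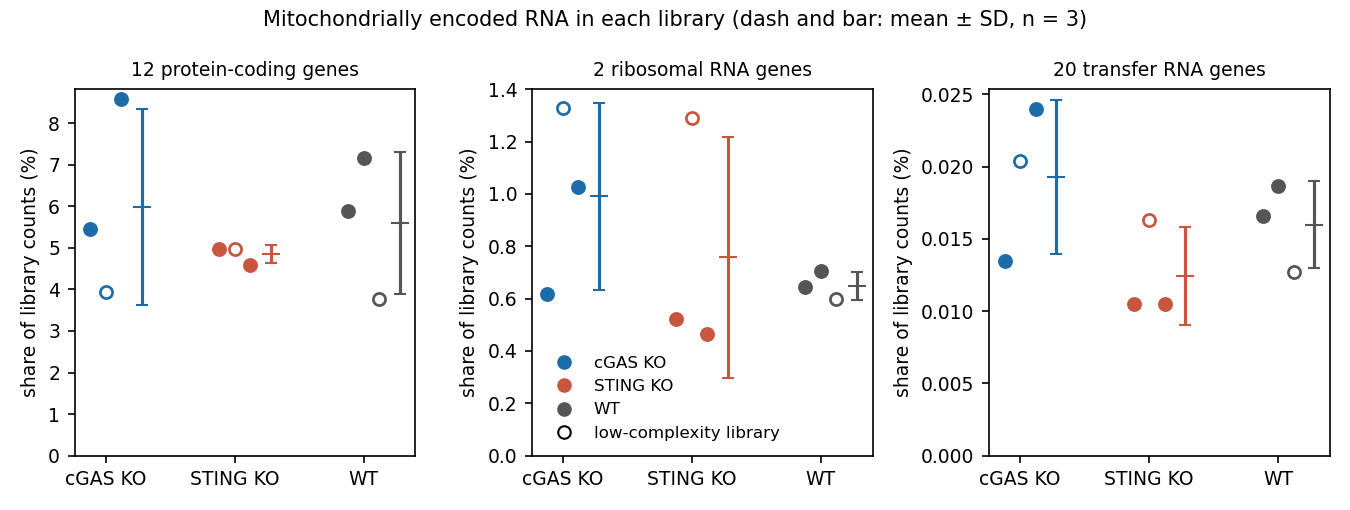
Share of each library's counts (percent, linear axis from 0) taken by the protein-coding, ribosomal and transfer RNA genes, by genotype; points are libraries, open points the 3 low-complexity libraries, dash and bar the mean ± SD of 3. The protein-coding share runs from 3.77% in WT 3 to 8.57% in cGAS KO 3, and the groups overlap in each panel.

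Level per length formed separate tiers among the protein-coding genes. Over the 6 libraries of higher complexity, mt-Co1 (subunit of complex IV) had the highest mean, 13870 CPM per kilobase, with 10250 to 21010 in single libraries. It was followed by mt-Cytb (complex III) at 9431, and by the complex I genes mt-Nd1 at 7994, mt-Nd2 at 5361, mt-Nd4 at 4447, mt-Nd5 at 3647 and mt-Nd6 at 3419 CPM per kilobase. Neighbours in that order overlapped in their range over the 6 libraries, mt-Cytb for instance with 6889 to 12770 and mt-Nd1 with 5484 to 12210. The other 5 lay far below: mt-Co2 at 337, mt-Atp6 at 263, mt-Nd4l at 229, mt-Co3 at 146 and mt-Atp8 at 12.1 CPM per kilobase. No library of the 6 had any of these 5 above 442 or any of the upper 7 below 2426. mt-Rnr2 and mt-Rnr1, the large and small ribosomal RNAs, lay at 2624 and 2558 CPM per kilobase.

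The 5 low genes are the ones that lie wholly in a stretch of the mitochondrial genome with a near-identical copy in the nucleus. The stretch runs from chrM:6390-11042 in mm10, 4653 bases, and its annotated copy lies on chromosome 1 between 24611535 and 24616197 on the minus strand. The copy is annotated as a row of unprocessed pseudogenes. Gm28661 matched 681 bases of mt-Co2, Gm10925 678 bases of mt-Atp6, Gm28437 783 bases of mt-Co3 and Gm10222 294 bases of mt-Nd4l, each at 100% identity. Gm28439 matched the first 876 of the 1378 bases of mt-Nd4 at 100%, and Gm29216 matched bases 1063 to 1545 of mt-Co1 with a single substitution, A1066T, counted from the start of the gene with the mitochondrial base first. mt-Atp8 lies between the copied genes, in the same stretch. mt-Co1 and mt-Nd4 lie only partly in it, and the 5 protein-coding genes outside it were all in the upper tier.

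The beginning of the copied part of mt-Co1 is printed beside the 2 annotated copies nearest to it in this window. Over its whole length Gm13340 has 37 mismatches in 1545 bases, and Gm11512, a further copy that is not printed, has 61 in 654. The lines give bases 1063 to 1110 of the gene, 5′ to 3′, from the GENCODE transcripts for mm10: mt-Co1 itself at chrM:6390-6437 on the plus strand, Gm29216 at chr1:24616141-24616188 and Gm13340 at chr2:22588538-22588585, both on the minus strand. Capitals mark the positions of A1066T (Gm29216) and T1072C (Gm13340), and each copy differs from the gene at 1 of these bases.
mt-Co1: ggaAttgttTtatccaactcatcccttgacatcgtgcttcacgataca
Gm29216: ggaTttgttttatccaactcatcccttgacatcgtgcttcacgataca
Gm13340: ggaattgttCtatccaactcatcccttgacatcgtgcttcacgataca

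A read from the identical part has 2 equal places in the genome, and the sources used here do not state how such reads were counted. The copies held counts of their own in every library. Of the counts on mt-Co2 and Gm28661 together, the copy held 34.8% to 55.8% in the 6 libraries of higher complexity and 29.0% to 36.0% in the other 3. For mt-Atp6 and Gm10925 the copy held 35.4% to 76.4% in the 6, with the highest value in WT 2, where Gm10925 had 9756 counts. Gm29216 held at most 0.364% of the counts on mt-Co1 and itself, in STING KO 3. Whether the low counts of the 5 genes come from the treatment of reads with several places was not tested, and their levels are not comparable with those of the other protein-coding genes.

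The 3 transfer RNA genes in the stretch had almost no counts. Over all 9 libraries mt-Ts1 (for serine) had 3 counts, mt-Td (for aspartate) 1 and mt-Tk (for lysine) 3. Outside the stretch, mt-Tp (for proline) had the highest level per length, a mean of 858 CPM per kilobase over the 6 libraries, before mt-Te (glutamate) at 384, mt-Tc (cysteine) at 254, mt-Tl1 (leucine) at 187 and mt-Tn (asparagine) at 175. mt-Tf (phenylalanine), at the start of the genome, had 0 counts in all 9. A transfer RNA gene is shorter than the 150 bases read from each end of a fragment. A count on it can thus come from the mature transfer RNA or from a longer RNA that covers it. These cannot be told apart. The strand setting of the counting is not stated, and mt-Tp, mt-Te, mt-Tc and mt-Tn lie on the minus strand, as does mt-Nd6. Whether their counts include RNA of the plus strand was not tested.

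**Figure D2:**
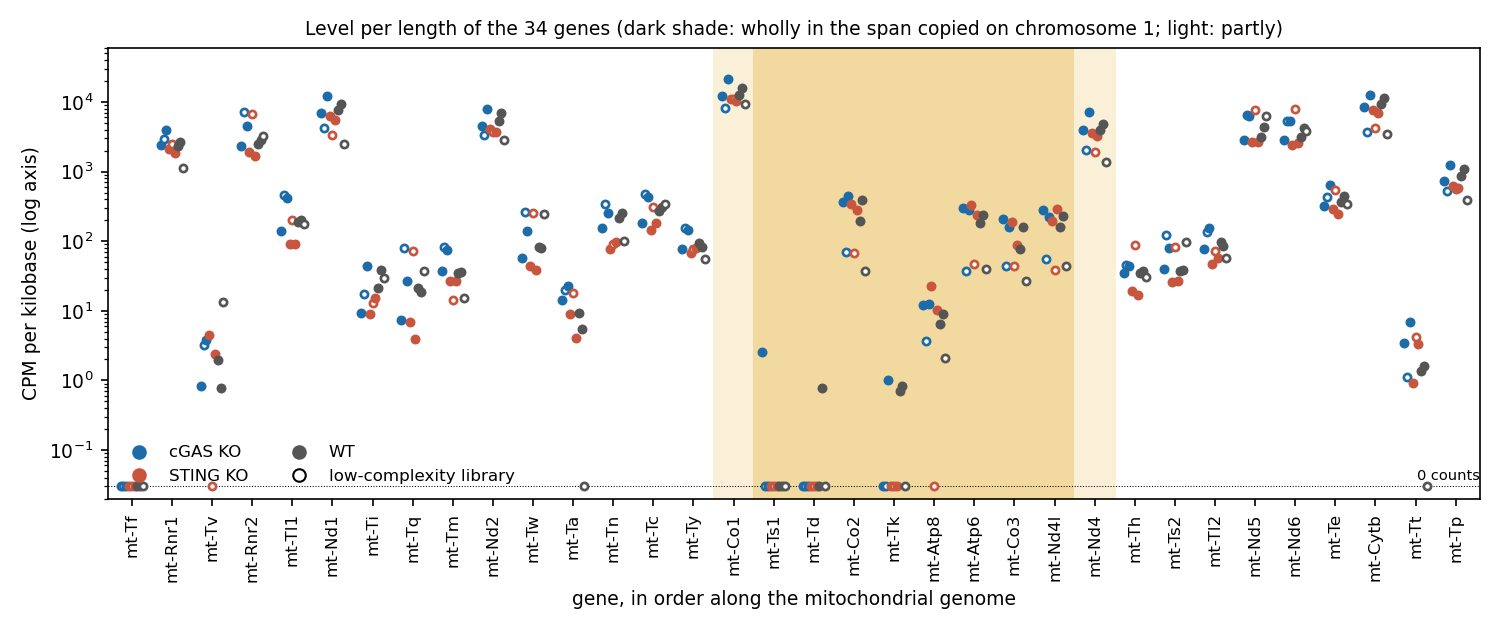
CPM per kilobase (log axis) of the 34 genes in their order along the mitochondrial genome; each gene has 9 points, 1 per library, coloured by genotype and open for low-complexity libraries, and a point on the dotted line stands for 0 counts. The darkly shaded genes lie wholly in the stretch copied on chromosome 1, and its 5 protein-coding genes stay at 442 or below in the 6 libraries of higher complexity.

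The mix of the protein-coding RNAs separated the 3 low-complexity libraries from the other 6, and not the genotypes. Among the transfer RNA genes, single shares also differed by genotype. mt-Tm took 2.01% to 2.64% of the transfer RNA counts in cGAS KO. In STING KO it took 0.595% to 1.84% and in WT 0.807% to 1.53%. mt-Nd5 took 9.87%, 27.9% and 12.5% of the protein-coding counts in cGAS KO 1, 2 and 3, 9.93%, 28.1% and 11% in STING KO, and 10.3%, 11.1% and 29.0% in WT. Its high values were thus those of cGAS KO 2, STING KO 2 and WT 3. mt-Nd6, the complex I gene on the other strand whose end overlaps that of mt-Nd5 by 14 bases, took 5.09% to 8.22% in those 3 libraries and 2.62% to 3.05% in the other 6. mt-Cytb took 9.81% to 10.2% against 15.9% to 19.2%, mt-Nd1 6.12% to 9.74% against 12% to 13%, and mt-Nd4 4.89% to 6.82% against 9.31% to 10.8%. mt-Co1 stayed near its share, 30.3% to 36.8% against 34.7% to 36.1%.

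The 2 ribosomal RNAs, neighbours on 1 strand, showed the same split. Counts on mt-Rnr2 were 4.04 to 4.78 times those on mt-Rnr1 in the low-complexity libraries and 1.49 to 1.89 times in the other 6. Ribosomal counts came to 15.8% to 33.9% of the protein-coding counts in the 3 and 9.87% to 12% in the 6, and transfer RNA counts to 0.328% to 0.518% and 0.211% to 0.282%. The ratio of mt-Nd5 to mt-Nd1 counts was 2.86 to 4.74 in the 3 and 0.783 to 0.983 in the 6. These ratios are taken within a library and do not depend on the scaling between libraries. Each genotype holds 1 of the 3 libraries, so the spread within every group below includes this split.

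**Figure D3:**
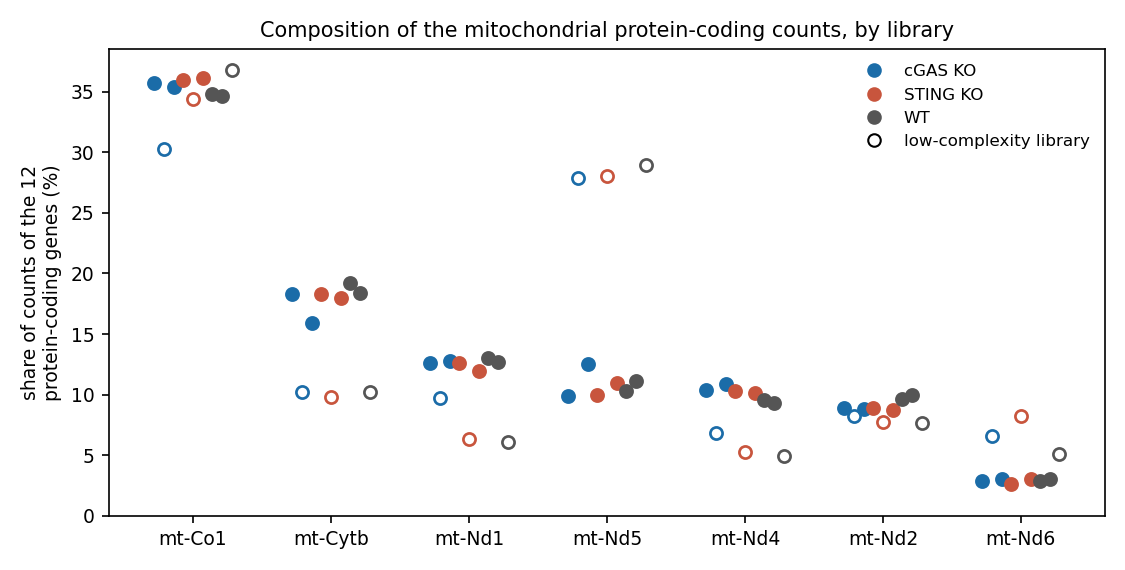
Share (percent, linear axis from 0) of the counts of the 12 protein-coding genes taken by each of the 7 genes not wholly in the copied stretch; points are libraries, coloured by genotype, open for the 3 low-complexity libraries. The open points lie at 27.9% to 29.0% for mt-Nd5, above the filled points at 9.87% to 12.5%.

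Each comparison of genotypes asked whether loss of cGAS or of STING went with another level of these RNAs. The 2 comparisons with WT share the WT libraries, and the comparison of the knockouts shares its libraries with both. All 12 protein-coding, both ribosomal and 14 of the 20 transfer RNA genes had enough counts to be tested. The 6 others (mt-Tf, mt-Tv, mt-Ts1, mt-Td, mt-Tk and mt-Tt) had 0 to 33 counts over all libraries. With edgeR's quasi-likelihood test over 17821 genes and Benjamini-Hochberg adjustment at 0.05, none of the 28 genes passed in any comparison, nor did any other gene (0% called in each). limma-voom also called 0% in each. DESeq2, run without the count filter, called 1 gene for cGAS KO against WT (0.00314% of its genes), 10 for STING KO against WT (0.0455%) and 8 for STING KO against cGAS KO (0.0398%), none of them mitochondrial.

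At an unadjusted edgeR p under 0.05, 1 of the 28 genes differed between cGAS KO and WT (mt-Tm, higher), against 2.03% of all genes tested. Between STING KO and WT it was also 1 (mt-Tn, lower), against 1.63%. Between STING KO and cGAS KO there were 4, all transfer RNA genes and all lower in STING KO (mt-Tl1, mt-Tm, mt-Tn and mt-Tl2), against 1.45%. Counted by libraries that do not overlap, mt-Tm and mt-Ta were higher in all cGAS KO than in all WT libraries, 7.14% of the 28 against 4.0% of all genes, and none was lower, against 4.0%. mt-Ti and mt-Tn were lower in all STING KO than in all WT libraries, 7.14% against 3.67%, and none was higher, against 3.4%. mt-Tm, mt-Tn and mt-Tl2 were lower in all STING KO than in all cGAS KO libraries, 10.7% against 3.72%, and none was higher, against 3.63%. These counts are small, and no protein-coding or ribosomal RNA gene is among them.

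By class, the median log2 fold change of the protein-coding genes was 0.31 for cGAS KO against WT, 0.03 for STING KO against WT and -0.35 for STING KO against cGAS KO. For the 2 ribosomal RNA genes it was 0.66, 0.17 and -0.49, and for the 14 tested transfer RNA genes 0.45, -0.35 and -0.80. The medians over all genes tested were -0.01, -0.004 and 0.008. All 12 protein-coding genes had a positive value for cGAS KO against WT, 6 of 12 for STING KO against WT and 2 of 12 for STING KO against cGAS KO. For transfer RNA genes these were 13, 3 and 0 of 14. The protein-coding median of 0.03 for STING KO against WT joins genes that went opposite ways. The 5 genes wholly in the copied stretch were all above 0, with a median of 0.274. Of the 5 outside it 1 was above 0, with a median of -0.369. Without the low-complexity libraries these 2 medians were 0.319 and -0.535. Genes counted in the same libraries are not independent observations, and neither are their signs. Without WT 3 the protein-coding median of cGAS KO against WT was -0.01 and without cGAS KO 3 it was 0.05. Without cGAS KO 3 the protein-coding median of STING KO against cGAS KO was 0.06, and that of STING KO against WT ran from -0.26 to 0.21 over the fits that left out 1 library.

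Without the 3 low-complexity libraries, 2 libraries a group remained. Standard errors of the 28 genes were then smaller except for mt-Ti, where they were larger (0.66 against 0.609 for cGAS KO against WT). edgeR then called 0% of 17657 genes for cGAS KO against WT, 4 genes (0.0227%) for STING KO against WT and 3 (0.017%) for STING KO against cGAS KO, none of them among the 28. At an unadjusted p under 0.05, mt-Ta and mt-Atp6 were higher in cGAS KO than in WT, against 4.2% of all genes. Between STING KO and WT, 9 of the 28 passed that threshold, against 6.91%: mt-Atp8 and mt-Atp6 higher, and mt-Tl1, mt-Tq, mt-Tw, mt-Tn, mt-Th, mt-Tl2 and mt-Tp lower. Between STING KO and cGAS KO it was 18 of the 28, or 64.3% against 3.69%, all lower in STING KO: 4 protein-coding genes (mt-Nd1, mt-Nd2, mt-Nd4 and mt-Nd6), both ribosomal RNA genes and 12 transfer RNA genes.

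The 2 cGAS KO libraries behind that count gave different answers. Each was left out in turn, in fits added after the data had been seen, which leaves 1 cGAS KO library whose spread is assumed to be that of the other groups. Without cGAS KO 3, the library with the highest mitochondrial share, 4 of the 28 were under an unadjusted 0.05 between STING KO and cGAS KO (mt-Rnr2, mt-Tl1, mt-Tn and mt-Th), against 2.77% of all genes, and none was called after adjustment, against 10 genes in all (0.0538%). The class medians were then -0.20 for protein-coding, -0.32 for ribosomal and -0.48 for transfer RNA genes. Without cGAS KO 1, 23 of the 28 were under 0.05, against 24.8%, and 18 were called, all lower in STING KO, against 751 genes in all (4.04%). The medians were then -0.89, -1.17 and -1.55. STING KO thus stood further below cGAS KO 3 than below cGAS KO 1.

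For cGAS KO against WT, the fit without cGAS KO 3 had 6 of the 28 under an unadjusted 0.05, 5 of them lower in cGAS KO, against 7.68% (0% called). The fit without cGAS KO 1 had 17, all higher, against 19.9% (19 genes called, 0.102%, none of the 28). The lone cGAS KO library gives no spread of its own. It can still enter STING KO against WT through the count filter, the scaling and each gene's mean level, which edgeR uses in estimating the spread. The genes tested numbered 18579 without cGAS KO 3 and 18608 without cGAS KO 1. STING KO against WT uses the same 4 libraries in both fits, so its results there are not independent. It had 21 of the 28 under 0.05 in each, against 13.9% and 13.8%, with 27 (0.145%) and 20 (0.107%) genes called. Of the 28 only mt-Tn was among these, with edgeR adjusted p-values of 0.0492 and 0.0471 and a log2 fold change of -1.40 in both. In STING KO against WT, mt-Tn passed the adjusted threshold in no other setting run.

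**Figure D4:**
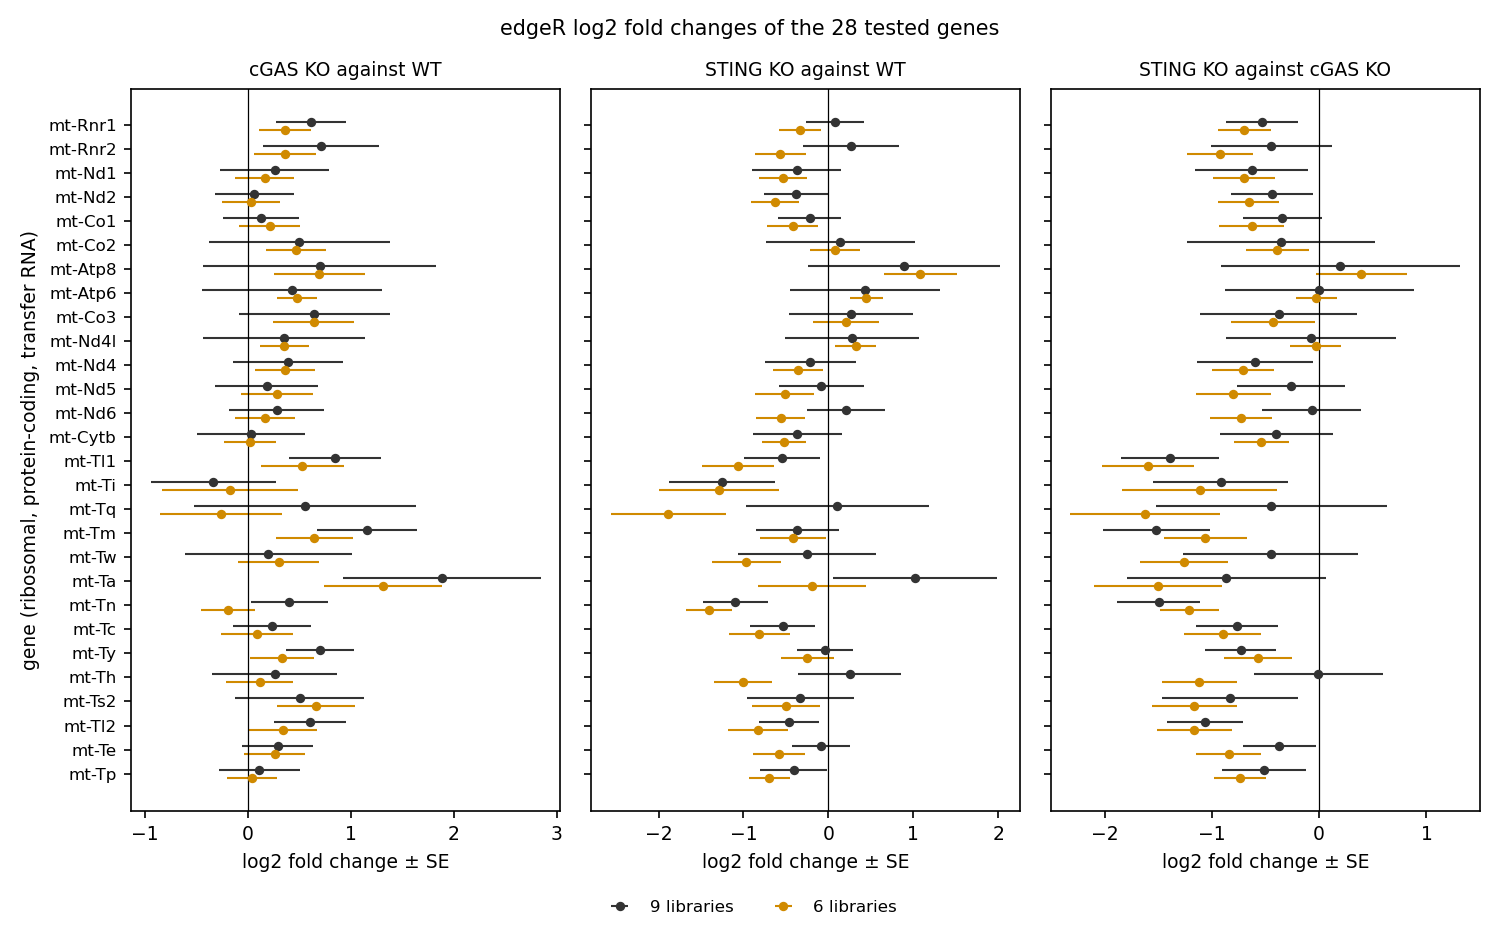
edgeR log2 fold changes with standard errors of the 28 tested genes in the 3 comparisons, from all 9 libraries (dark) and from the 6 libraries of higher complexity (light). In the right panel the transfer RNA genes have medians of -0.80 (9 libraries) and -1.14 (6 libraries), and no gene passes the adjusted threshold in either fit.

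Among the complex I genes, mt-Nd1 lay at 6591, 4074 and 11680 CPM in cGAS KO 1, 2 and 3, at 6041, 3165 and 5248 in STING KO and at 7328, 9009 and 2385 in WT. The lowest value of each group was that of its low-complexity library, and the groups overlapped. Its log2 fold change was 0.26 (SE 0.526) for cGAS KO against WT and -0.37 (SE 0.526) for STING KO against WT. mt-Nd5, the largest of the protein-coding genes, had its highest value of each group in the low-complexity library: 5160, 11650 and 11480 CPM in cGAS KO, 4773, 14020 and 4806 in STING KO and 5788, 7899 and 11310 in WT. Its log2 fold changes were 0.18 (SE 0.501) and -0.08 (SE 0.501) against WT. mt-Nd2, mt-Nd4, mt-Nd4l and mt-Nd6 had log2 fold changes of 0.06 to 0.39 for cGAS KO against WT and of -0.38 to 0.27 for STING KO against WT, each smaller than its standard error.

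mt-Cytb, the only mitochondrial gene of complex III, lay at 9570, 4276 and 14610 CPM in cGAS KO, 8795, 4901 and 7882 in STING KO and 10830, 13050 and 3988 in WT. The groups overlapped, with log2 fold changes of 0.03 (SE 0.523) and -0.37 (SE 0.524) against WT. Of the complex IV genes, mt-Co1, the catalytic subunit and the most abundant of the 34, lay at 18690, 12660 and 32460 CPM in cGAS KO, 17270, 17180 and 15840 in STING KO and 19630, 24640 and 14350 in WT. STING KO had the narrowest range, which lay inside that of WT. The log2 fold changes of mt-Co1 were 0.12 (SE 0.37) and -0.22 (SE 0.37).

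The remaining complex IV genes lie in the copied stretch. mt-Co2 lay at 253, 47.4 and 302 CPM in cGAS KO, 235, 46.1 and 189 in STING KO and 133, 269 and 25.6 in WT. mt-Co3 ranged from 21.3 CPM in WT 3 to 163 in cGAS KO 1. In both genes the low-complexity library was the lowest of each group. The complex V genes behaved alike in this respect: mt-Atp6 lay at 204, 25 and 194 CPM in cGAS KO, 227, 32.4 and 164 in STING KO and 125, 162 and 27.6 in WT, and mt-Atp8, which overlaps it by 43 bases, at 0 to 4.59 CPM. Their log2 fold changes for STING KO against WT were 0.43 (SE 0.879) and 0.89 (SE 1.13), and without the low-complexity libraries 0.45 (SE 0.193, edgeR unadjusted p = 0.0486) and 1.08 (SE 0.432, unadjusted p = 0.0351). Neither passed after adjustment. Gm10925, the nuclear copy of mt-Atp6, lay at 124.5 CPM in STING KO 1 and 196 in STING KO 3. In WT 1 it lay at 85.3 CPM and in WT 2 at 523. The fold changes of mt-Atp6 may depend on how reads were divided between gene and copy, which was not tested.

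The small ribosomal RNA mt-Rnr1 lay at 2311, 2807 and 3799 CPM in cGAS KO, 2026, 2385 and 1751 in STING KO and 2250, 2518 and 1068 in WT. 2 of the 3 cGAS KO libraries were above all WT libraries, and the third lay among them. Its log2 fold change was 0.61 (SE 0.337, edgeR unadjusted p = 0.101) for cGAS KO against WT and -0.53 (SE 0.337) for STING KO against cGAS KO. The large ribosomal RNA mt-Rnr2 lay at 3624, 11350 and 7169 CPM in cGAS KO, 3015, 10570 and 2679 in STING KO and 3921, 4496 and 5108 in WT. Its highest values were those of cGAS KO 2 and STING KO 2, and its log2 fold change of 0.71 (SE 0.563) for cGAS KO against WT was 0.36 (SE 0.301) without the low-complexity libraries.

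The transfer RNA genes with the smallest p between the knockouts are printed here with the anticodon in capitals, as DNA letters, 5′ to 3′ in the sense of the transfer RNA, from the GENCODE transcripts. mt-Tn, at chrM:5089-5159 on the minus strand, reads asparagine codons. mt-Tl1, at chrM:2676-2750 on the plus strand between mt-Rnr2 and mt-Nd1, and mt-Tl2, at chrM:11671-11741 on the plus strand just before mt-Nd5, read the different codon families of leucine. mt-Tm, at chrM:3845-3913 on the plus strand just before mt-Nd2, reads methionine.
mt-Tn: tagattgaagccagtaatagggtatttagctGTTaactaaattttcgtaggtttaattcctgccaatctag
mt-Tl1: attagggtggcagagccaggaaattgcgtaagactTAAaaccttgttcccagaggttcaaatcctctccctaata
mt-Tm: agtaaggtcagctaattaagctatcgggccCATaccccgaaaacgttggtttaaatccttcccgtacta
mt-Tl2: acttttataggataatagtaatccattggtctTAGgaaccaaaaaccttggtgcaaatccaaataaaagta

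mt-Tn lay at 10.9, 24.4 and 18 CPM in cGAS KO, 5.53, 6.40 and 6.92 in STING KO and 15.3, 17.7 and 7.21 in WT. STING KO was the lowest group without overlap, although its highest library was close to WT 3. The log2 fold change of mt-Tn was -1.50 (SE 0.387, edgeR unadjusted p = 0.00338) for STING KO against cGAS KO and -1.10 (SE 0.383, unadjusted p = 0.0178) for STING KO against WT, and the adjusted p was 0.9998 or above in both. Without the low-complexity libraries it was -1.41 (SE 0.272, edgeR unadjusted p = 0.000726) against WT. As a share of the transfer RNA counts, mt-Tn took 3.91% to 6.89% in STING KO, 5.49% to 9.62% in WT, which overlapped with it, and 7.01% to 11.3% in cGAS KO, which did not.

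mt-Tl1 lay at 10.6, 34.3 and 31.0 CPM in cGAS KO, 6.83, 15.2 and 6.92 in STING KO and 13.9, 14.9 and 13.4 in WT. The high libraries were cGAS KO 2 and cGAS KO 3, and STING KO overlapped with both other groups. Its log2 fold change was -1.39 (SE 0.454, edgeR unadjusted p = 0.0127) for STING KO against cGAS KO. mt-Tm lay at 2.61, 5.73 and 5.17 CPM in cGAS KO, 1.86, 0.974 and 1.84 in STING KO and 2.44, 2.52 and 1.06 in WT, with 14 to 79 counts a library. cGAS KO was above both other groups without overlap, by a narrow margin for cGAS KO 1 over WT 2, with a log2 fold change against WT of 1.15 (SE 0.489, unadjusted p = 0.0411). mt-Tl2 lay at 5.45, 9.49 and 11 CPM in cGAS KO, 3.29, 5.08 and 4.02 in STING KO and 6.99, 6.00 and 4.03 in WT. STING KO lay below cGAS KO without overlap and reached into WT, with a log2 fold change of -1.06 (SE 0.354, edgeR unadjusted p = 0.014) against cGAS KO.

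**Figure D5:**
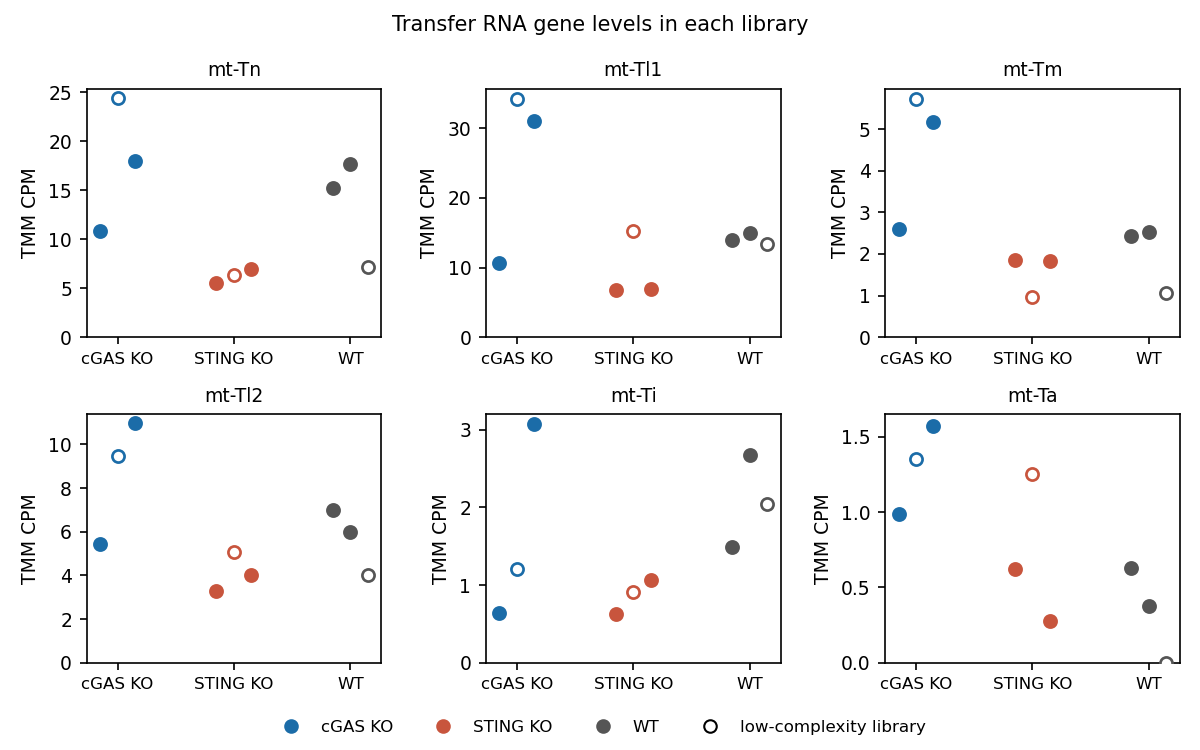
Level (CPM after trimmed-mean scaling, linear axes from 0) of 6 transfer RNA genes in each library by genotype: the 4 with an unadjusted p under 0.05 between the knockouts, and mt-Ti and mt-Ta, which also had groups that did not overlap. Open points are low-complexity libraries; for mt-Tn the STING KO libraries lie at 5.53 to 6.92, below the WT libraries at 7.21 to 17.7.

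Of the others, mt-Ti (isoleucine), with 10 to 50 counts a library, lay at 0.621 to 1.06 CPM in STING KO and 1.49 to 2.68 in WT, and its log2 fold change of -1.26 (SE 0.625) had an edgeR unadjusted p of 0.0737. mt-Ta (alanine), with 0 to 24 counts, lay at 0.985 to 1.57 CPM in cGAS KO and 0 to 0.631 in WT. At these counts the precision of single libraries is low. mt-Tp, the most abundant transfer RNA gene, lay at 49.5, 34.8 and 84.4 CPM in cGAS KO, 41.6, 37.5 and 39.0 in STING KO and 57.1, 73.4 and 25.9 in WT, and the groups overlapped. mt-Tw (tryptophan) and mt-Tq (glutamine) followed the split of the libraries: mt-Tw took 8.14% to 12.4% of the transfer RNA counts in the low-complexity libraries against 2.61% to 3.70%, and mt-Tq 1.99% to 3.14% against 0.278% to 0.964%. mt-Tp went the other way, with 16.1% to 22.9% against 32.9% to 41.1%. With all 9 libraries, the log2 fold changes of mt-Tc, mt-Ty, mt-Th, mt-Ts2 and mt-Te had edgeR unadjusted p-values of 0.0525 or above in all 3 comparisons. Without the low-complexity libraries, those of mt-Tc, mt-Th, mt-Ts2 and mt-Te ran from 0.0115 to 0.0358 for STING KO against cGAS KO. That of mt-Th was then 0.0182 for STING KO against WT.

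The nuclear genes that copy, transcribe and process mitochondrial nucleic acids were examined beside them. Of 35 such genes 34 were tested and none passed after adjustment in any comparison, with medians of -0.04, -0.09 and 0.02 for cGAS KO against WT, STING KO against WT and STING KO against cGAS KO. Pnpt1, the polynucleotide phosphorylase that degrades mitochondrial RNA, had the smallest p for cGAS KO against WT. It lay at 18.5, 12.7 and 14.5 CPM in cGAS KO, 22.3, 25.5 and 22 in STING KO and 22.5, 25.7 and 27.1 in WT, so that all cGAS KO libraries were below all others. Its log2 fold change was -0.72 (SE 0.201, edgeR unadjusted p = 0.00539). Over all genes tested, 4.0% were lower in all cGAS KO than in all WT libraries, and 3.63% were higher in all STING KO than in all cGAS KO libraries. Polg, the mitochondrial DNA polymerase, Grsf1, an RNA-binding protein of mitochondrial RNA granules, and Lrpprc, which stabilises mitochondrial messenger RNAs, were the most abundant of the list. Their log2 fold changes against WT lay between -0.17 and 0.31. Polg lay at 81.8 to 98.4 CPM in STING KO and 69.15 to 73.89 in WT. Tbrg4, also of the list, lay at 37.5 to 39.8 CPM in STING KO and 27.6 to 31.7 in WT. Both were thus higher in all STING KO than in all WT libraries, as were 3.4% of all genes tested.

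Of 38 nuclear genes for respiratory chain subunits 37 were tested and none passed, with medians of 0.07, 0.06 and 0.003. Atp5b, the catalytic beta subunit of ATP synthase, lay at 830, 717 and 798 CPM in cGAS KO, 838, 515 and 766 in STING KO and 849, 814 and 370 in WT. The low-complexity library was the lowest of each group. The summed level of the 38 genes showed it too, with 3226, 2580 and 2003 CPM in the 3 low-complexity libraries and 4099 to 5263 CPM in the other 6.

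Markers of cell types were set beside the mitochondrial share, and their part in it was not tested. In cGAS KO 3, with the highest mitochondrial share, several summed markers were also the highest. These were microglial (416 CPM against 229 to 314 in the others), red cell (211 against 43.7 to 149), endothelial (271 against 270 in WT 1), fibroblast (38.2) and spiny neuron markers (10790). The other lists were not highest there: neurons from other regions 70.3 CPM, oligodendrocytes 11610, astrocytes 5071 and choroid plexus 84.4. The 38 nuclear subunit genes, at 4099 CPM, were the lowest of the 6 libraries of higher complexity. In WT 3, with the lowest share, the spiny neuron, microglial (229 CPM), oligodendrocyte (7040), endothelial and red cell (43.7) markers were the lowest, and markers of astrocytes (7660 CPM) and of neurons from other regions (992 CPM) the highest. Choroid plexus markers stood at 2742 CPM in WT 1 and 26.9 to 491 CPM elsewhere. By group, the summed oligodendrocyte markers lay at 11610 to 14600 CPM in cGAS KO, 7165 to 12490 in STING KO and 7040 to 16910 in WT, the endothelial markers at 210 to 271 CPM in cGAS KO and 220 to 236 in STING KO, with the WT libraries up to 270, and the fibroblast markers at 21.4 to 38.2 in cGAS KO, 20.5 to 28.6 in STING KO and 30.6 to 35 in WT.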

How the data were processed

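RNA was extracted with Trizol and polyadenylated RNA was sequenced from both ends, 150 bases each, per the labels' protocols. The submitters' processing notes name the mm10 build and, without versions, HISAT2, which aligns reads, and featureCounts, which counts them per gene. The sources used here do not state its strand and multi-mapping settings. The authors deposited whole-number counts per gene identifier for each library. Of 54532 identifiers 54495 matched GENCODE M21, and the remainder accounted for 0.036% of the counts or less in each library. Groups were taken from the labels.

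edgeR 4.0.16 (R 4.3.3) fitted all 9 libraries in 1 model after trimmed-mean scaling and its default filter on low counts. Benjamini-Hochberg adjustment was at 0.05 over all 17821 genes. The procedure was tested on simulated counts with known changes, as a check of the code and not of its power in these data. Alternatives were DESeq2 1.42.0, limma 3.58.1, other scalings, no count filter, 2 groups only, a replicate block and left-out libraries. Nuclear copies were found with BLAST 2.17.0 among annotated transcripts (at least 90% identity over 100 bases). All protein-coding and ribosomal genes are named, and the transfer RNA genes that passed the filter. Of the nuclear lists, the 3 most abundant genes and those of smallest p were picked, and only some of these are named. The 34 genes and the lists were chosen with earlier results of these data known. Library totals set the precision of counts, and single transfer RNA genes rest on few of them.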

Additional observations from a re-analysis of the deposited data

How the results depend on the processing

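edgeR called no gene in any comparison under the other scalings, the fits on 2 groups or the fits without 1 of the 9 libraries. DESeq2, which was run without a count filter, called 1, 10 and 8 genes for cGAS KO against WT, STING KO against WT and STING KO against cGAS KO, and edgeR without a count filter 4 and 4 for the last 2. edgeR without the 3 low-complexity libraries called 4 and 3. Of the 5-library fits, added after the data had been seen, that without cGAS KO 3 called 27 and 10 for the last 2, and that without cGAS KO 1 called 19, 20 and 751. Mitochondrial calls in them were mt-Tn for STING KO against WT (1 in each) and, without cGAS KO 1, 18 for STING KO against cGAS KO. The cause was not tested.

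Medians depended on the libraries. For STING KO against WT the ribosomal median was -0.452 and the transfer RNA median -0.821 without the low-complexity libraries, -0.448 and -0.816 also without cGAS KO 3, and -0.45 and -0.819 also without cGAS KO 1. Over the fits without 1 library they ran from -0.349 to 0.384 and from -0.91 to -0.185, both lowest without STING KO 2. For cGAS KO against WT the 5-library fit without cGAS KO 3 gave -0.126 and -0.359, below 0, where all libraries gave 0.66 and 0.45. For STING KO against cGAS KO the 5-library fit without cGAS KO 1 gave -1.171 and -1.55, and leaving out only cGAS KO 1 gave -0.73 and -1.062. Protein-coding medians ran over the fits without 1 library from -0.013 to 0.664, -0.261 to 0.212 and -0.648 to 0.057 in the 3 comparisons. Leaving out 1 library changed the sign of 1 to 7, 2 to 8 and 2 to 6 of the 28 fold changes. In cGAS KO against WT, the 5-library fit without cGAS KO 3 changed the sign of 19 of the 28. Among them were mt-Tc, mt-Tn, mt-Nd2 and mt-Tp, above 0 with all libraries and at -0.67, -0.60, -0.42 and -0.39 in that fit. With only cGAS KO 3 left out, the same genes were at 0.08, 0.39, -0.35 and -0.31. Adding the counts of nuclear copies moved the share of protein-coding counts in the copied stretch from 0.936% to 1.57% in STING KO and from 0.586% to 1.21% in WT.

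With the replicate number as a block, edgeR called 0 genes in each comparison and the transfer RNA medians were 0.33, -0.48 and -0.74. mt-Atp6 in cGAS KO against WT had a log2 fold change of -0.10 with the block and 0.47 without the low-complexity libraries. Deviations of same-numbered libraries correlated at 0.427, -0.406 and -0.188 (cGAS KO and WT), 0.327, -0.447 and -0.419 (STING KO and WT) and 0.502, 0.469 and 0.06 (STING KO and cGAS KO), so the numbers were not taken as pairs. The 6 untested transfer RNA genes had 0 to 33 counts in all, too few for a comparison.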
